A study of Mus musculus with 18 samples.

Results

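The genes described here are 34 members of the p53 pathway, chosen by gene symbol. The list holds the factor Trp53, its inhibitors and established targets. The rule itself uses no measured value, but the list was drawn up with earlier results of these data known. Member shares set beside those of all loci carry that limit. They stood on 35 of the 58570 gene loci in the deposited tables, because Zmat3 was listed at 2 loci with the same coordinates. Of the 34 genes, 31 reached a level of FPKM 1 (fragments estimated per kilobase of a transcript, set relative to the depth) in at least 1 group, as did 21962 of all loci, and these 31 are described.

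RNA came from whole spinal cords of SMNΔ7 mice, a mouse model of spinal muscular atrophy (SMA), at postnatal days 2, 6 and 10 (P2, P6 and P10). The SMA groups were homozygous pups, which in this line lack the mouse gene Smn1, and the controls were heterozygous pups of the same ages; both come from a line that carries human SMN transgenes. The labels give 3 libraries for each of the 6 groups, 18 in all, and the authors had combined each group into 1 value per locus. That the libraries came from separate animals is not stated, and no spread between libraries can be given. Each log2 ratio at a single age is given with a standard error taken from the interval that the authors deposited beside each FPKM. Errors of differences across ages come from a linear model instead and do not use that interval. That model uses log2(FPKM + 1), and the added 1 shrinks differences at low FPKM. Differences across ages are thus on another scale than the ratios at single ages.

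The p53 protein is a transcription factor that is held at a low level by Mdm2, a ubiquitin ligase, and by its relative Mdm4. After DNA damage or other stress it accumulates, binds pairs of short sequence elements near its target genes and raises their transcription. The targets stop the cell cycle, promote cell death, repair DNA or counter oxidative stress, and Mdm2 is itself a target, which closes a feedback loop. In mouse models of SMA, p53 has been studied for its part in the death of motor neurons, which are a small share of the cells in a whole cord. In such bulk RNA, fewer cells of a type and less RNA per cell cannot be told apart.

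The paired element that p53 binds could be looked for in the promoters of 25 of the 34 members, from 250 bases before the annotated start to 50 bases after it, in RefSeq sequence of the build GRCm38.p6. A site was counted as 2 consensus elements of 10 bases (the p53 consensus half-site, which reads the same on both strands) with 0 or 1 base between them and at most 1 mismatch in all. Such a site was present in 5 of the 25 members (20%) and in 57 of all 27025 genes with a promoter (0.211%); a single element with no mismatch was present in 12 of the 25 (48%) and in 9.55% of all genes. The promoters of Cdkn1a and Ccng1 are shown whole, since these 2 members had the smallest p values across ages, with the site in capitals. The Cdkn1a promoter lies at chr17:29090729-29091028 on the plus strand and that of Ccng1 at chr11:40755237-40755536 on the minus strand.
Cdkn1a: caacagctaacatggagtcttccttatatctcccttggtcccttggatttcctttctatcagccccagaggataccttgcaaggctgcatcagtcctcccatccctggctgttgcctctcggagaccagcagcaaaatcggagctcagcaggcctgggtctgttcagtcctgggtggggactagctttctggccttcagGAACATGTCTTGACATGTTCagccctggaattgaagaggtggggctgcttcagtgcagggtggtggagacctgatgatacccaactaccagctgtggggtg
Ccng1: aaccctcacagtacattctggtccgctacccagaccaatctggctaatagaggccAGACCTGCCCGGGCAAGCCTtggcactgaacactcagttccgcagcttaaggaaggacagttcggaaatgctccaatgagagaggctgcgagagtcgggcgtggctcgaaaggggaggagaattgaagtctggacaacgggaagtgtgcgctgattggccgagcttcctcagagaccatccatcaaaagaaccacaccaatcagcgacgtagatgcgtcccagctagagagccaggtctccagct

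The capitals mark chr17:29090928-29090947 in Cdkn1a, from -51 to -32 relative to 1 of its 2 annotated starts. In Ccng1 they mark chr11:40755462-40755481, from -195 to -176 relative to the start. The window of the other Cdkn1a start held no such site. The other 3 sites are shown without their surroundings, to let the spacing of the elements be compared. The sites of Polk and Rps27l belong to a second annotated start that lies inside the gene. Those of Bax and Polk hold 1 base between the elements, and that of Rps27l none.
Bax, chr7:45467090-45467110, minus strand: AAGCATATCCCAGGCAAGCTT
Polk, chr13:96519398-96519418, minus strand: GAACTAGCCTCAAACTTATTC
Rps27l, chr9:66946296-66946315, plus strand: GGGCTTGTTGAGACTTGTCC

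These matches describe the letters in the windows, and binding was not measured in these samples. The members had been listed as p53 targets, so a share above that of all genes is a property of the list.

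Estimated fragments ranged from 6881671 to 7386338 per group, and 18031 to 19336 loci reached FPKM 1. The labelled tissue was checked by its markers: 7 of 7 spinal cord genes were at FPKM 1 or more in a group, whereas Emx1, a marker of the dorsal forebrain, was at most 0.117. Smn1 was at FPKM 0.0210, 0 and 2.82 in SMA cords at P2, P6 and P10, against 2.70, 4.46 and 3.54 in control cords. Against a floor of 3 fragments per group it was at least 8.52-fold lower at P2 and 10.004-fold lower at P6. The group labelled SMA at P10, however, held 79.8% of the control level. Each result at P10 thus rests on a group whose Smn1 value goes against its label. Mature oligodendrocyte markers summed to FPKM 3813 at P2 and 2261 at P6 in SMA cords, against 301 and 2012 in control cords. Each result at P2 thus rests on an SMA group with a higher sum than at P6, and the reason was not tested.

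At each age the members were mostly higher in SMA cords, and no member was called at an adjusted p under 0.05 (z test of the log ratio, Benjamini-Hochberg over all loci tested). At P2, 25 of 30 members had a higher value in SMA, against 49% of 19114 loci; 0 of the 30 were called, where 0.126% of all loci were, and 0 had an unadjusted p under 0.05, where 0.743% did. At P6, 28 of 30 were higher, against 60.1% of 19631 loci, with 0 called (0.0458% of loci) and 0 at an unadjusted p under 0.05 (0.168%). At P10, 22 of 31 were higher in the group labelled SMA, against 55.6% of 20157 loci, with 0 called (0.0397%) and 1, Cdkn1a, at an unadjusted p under 0.05 (0.213%).

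Some members entered a test at 1 age only through the SMA group, which favours a higher SMA value: Pmaip1 and Eda2r at P2, these and Dram1 at P6, and Psrc1, Eda2r and Dram1 at P10. Among members at FPKM 1 or more in both groups, 23 of 28 were higher at P2, 25 of 27 at P6 and 19 of 28 at P10.

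The median log2 ratio of the members was 0.22 at P2, 0.35 at P6 and 0.07 at P10, beside medians of -0.01, 0.07 and 0.04 over all loci. The median standard error of a member's ratio was 0.61 at P2, 0.61 at P6 and 0.60 at P10, so most single ratios were smaller than their error. Most loci were alike in this. Over all loci, ratios divided by their errors spread by 0.270, 0.262 and 0.294 (robust SD) at P2, P6 and P10. The authors' intervals of the SMA and control groups overlapped for every member tested at every age, where 0.23%, 0.117% and 0.0794% of loci had intervals that did not overlap at P2, P6 and P10. At P6 the background itself depends on the level: of loci at FPKM 5 or more, 74.2% were higher in SMA, with 19 of 21 members. With the deposited fragment estimates in place of FPKM, 48.6% of loci were higher at P6 and 27 of 30 members were.

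**Figure D1:**
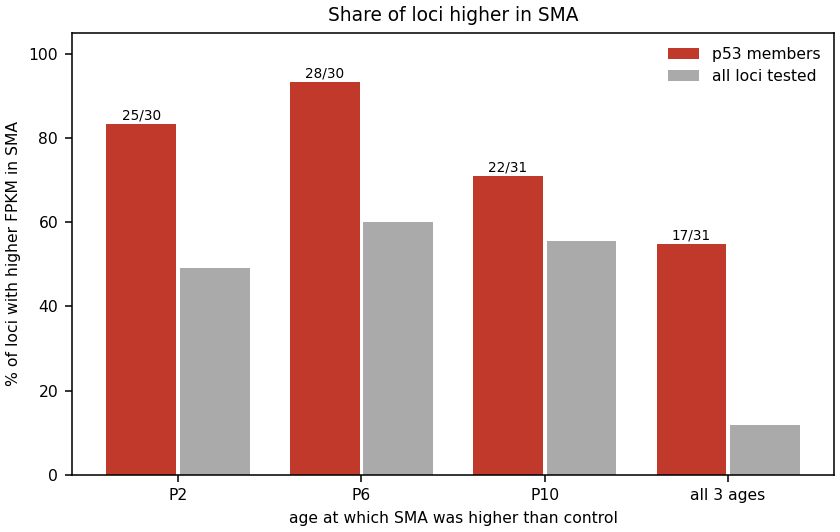
Share of loci with a higher FPKM in SMA than in control (y axis, percent) at P2, P6, P10 and at all 3 ages (x axis), for the p53 members in red and all loci tested in grey, with member counts over the bars. The members' share was above that of all loci at each age, with the smallest gap at P10. The loci are not matched to the members by level, on which the background at P6 depends.

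Over the 3 ages together, 31 of 31 members had a higher mean in SMA, beside 60.7% of 21960 loci (limma on log2(FPKM + 1), with age as a factor). At FPKM 5 or more in a group, 21 of 21 members were higher, beside 71.6% of 10640 loci. From the fragment estimates (52.2% of loci higher), and with the values centred on the median of all loci (55.9%), 30 were higher and Btg2 was lower. The fit treats the ages as replicates and leaves 2 residual degrees of freedom. It called 0 members (0.00455% of loci; adjusted p = 0.999 for each), and 5 members had an unadjusted p under 0.05, as did 2.05% of loci; all 5 were higher in SMA, as were 1.12% of loci at that p. These were Cdkn1a, Pmaip1, Ccng1, Eda2r and Trp53inp1. The median member difference was 0.18, beside 0.03 over all loci. Eda2r and Dram1 reached FPKM 1 only in SMA groups, so the minimum level itself favoured a higher SMA value for them. Without the P10 groups, 30 of 31 members were higher, 0 were called, and 8 had an unadjusted p under 0.05, as did 1344 of 20720 loci. In that fit Cdkn1a differed by 0.61, Pmaip1 by 0.62, Ccng1 by 0.50, Eda2r by 0.37 and Trp53inp1 by 0.38.

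Counted by age, 17 of the 31 were higher in SMA at 3 of 3 ages, as were 11.7% of all loci, and 24 were higher at both P2 and P6, as were 31.4%. No member (0) was lower at 3 of 3 ages, as 6.79% of loci were. Another 7, among them Trp53 and Mdm2, were higher at P2 and P6 and lower at P10 (19.7% of loci). Zmat3, at its main locus, and Rrm2b were higher at P2 and lower at P6 and P10. Btg2, Plk2, Bbc3, Xpc and Ddb2 were lower at P2 and higher at P6 and P10. Together the 31 members took 0.0949%, 0.0856% and 0.0884% of the fragments in SMA cords at P2, P6 and P10, against 0.0804%, 0.0792% and 0.0870% in control cords.

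**Figure D2:**
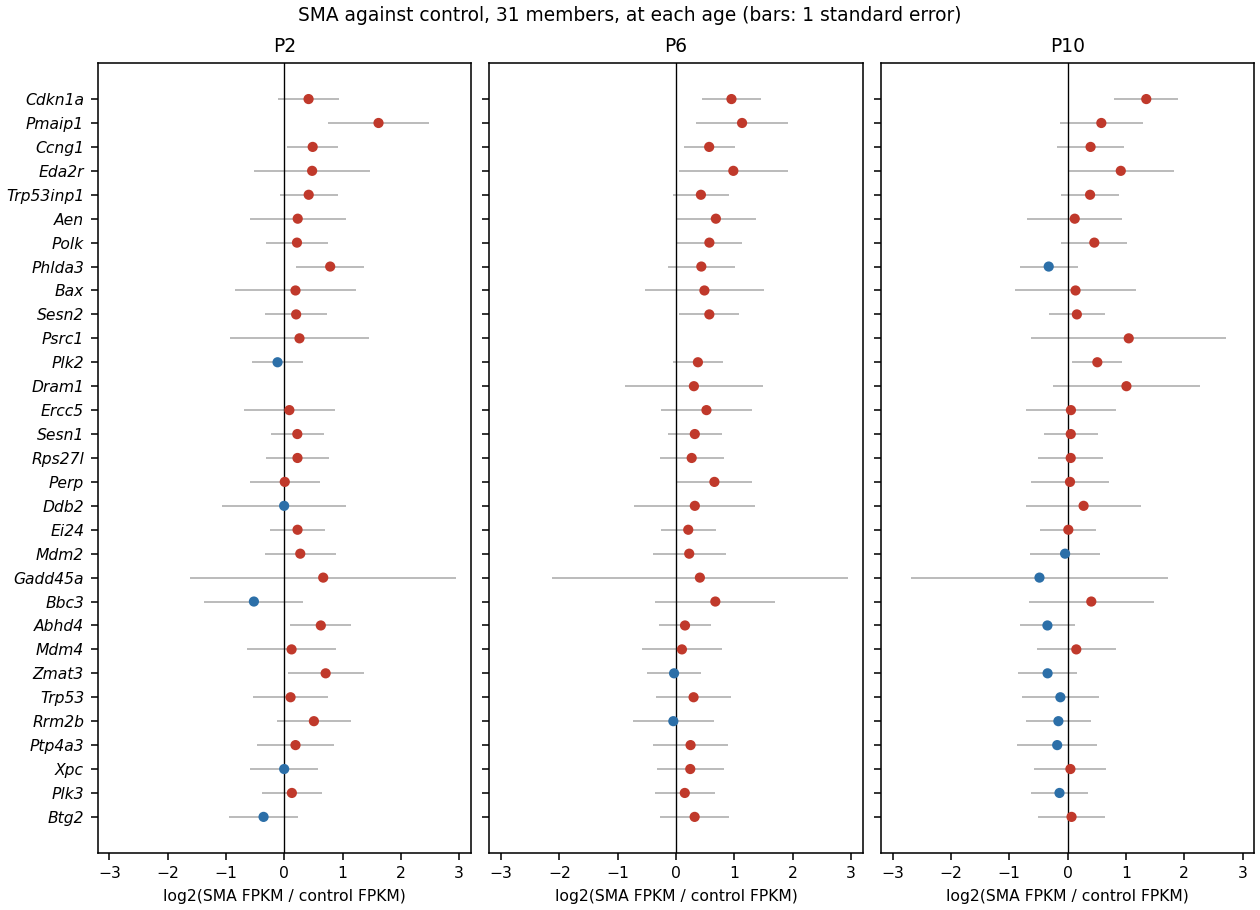
Log2 ratio of SMA over control FPKM (x axis) for the 31 members (rows, ordered by their difference across ages) at P2, P6 and P10; red points lie above 0 and blue points below, and bars are 1 standard error from the authors' interval. Dram1 at P2 and Psrc1 at P6 were under the minimum level and have no point; most bars cross 0, with Cdkn1a at P10 (1.35 ± 0.55) the member farthest from 0 in units of its error.

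The factor and its inhibitors differed between the groups by less than their standard errors at every age. Most loci did so at each age, so this does not set these 3 genes apart. Trp53, which encodes p53 (chr11:69580359-69591873), had FPKM 6.95, 6.85 and 6.56 in SMA cords at P2, P6 and P10, against 6.45, 5.55 and 7.15 in control cords. The SMA value was the higher one at P2 and P6 and the lower one at P10, and the log2 ratios were 0.11 ± 0.65, 0.30 ± 0.65 and -0.12 ± 0.65. The deposited locus of Trp53 spans 30.1 kb, against 11.5 kb for the annotated gene, so its level may include neighbouring sequence.

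Mdm2, the ubiquitin ligase that marks p53 for destruction and is also its target, had FPKM 13.9, 11.4 and 13.6 in SMA cords, against 11.5, 9.69 and 14.0 in control cords. Its ratios were 0.27 ± 0.61 at P2, 0.23 ± 0.62 at P6 and -0.04 ± 0.60 at P10. Mdm4, which binds p53 and blocks its activity, was the most abundant member, with FPKM 40.2, 40.9 and 44.2 in SMA cords, against 36.9, 38.1 and 39.8 in control cords. At all 3 ages the SMA value was the higher one, with log2 ratios of 0.13 ± 0.76, 0.10 ± 0.68 and 0.15 ± 0.68. Across ages Mdm2 differed by 0.14, Mdm4 by 0.12 and Trp53 by 0.08.

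Of the 8 targets that act on the cell cycle, 6 of 8 tested were higher in SMA at P2, 7 of 7 at P6 and 5 of 8 at P10. Over all loci tested, the shares were 49%, 60.1% and 55.6%. At P10 Psrc1 entered only through the SMA group, which favours a higher SMA value. Cdkn1a, which encodes the cyclin-dependent kinase inhibitor p21 (chr17:29090976-29100727), had FPKM 9.92 (authors' interval 5.01 to 14.8) at P2, 11.0 (5.85 to 16.2) at P6 and 9.41 (4.99 to 13.8) at P10 in SMA cords. In control cords it had FPKM 7.43 (3.71 to 11.2) at P2, 5.70 (2.84 to 8.56) at P6 and 3.69 (1.57 to 5.82) at P10. Every SMA value was above every control value, the control value was lower at each later age, and the intervals overlapped at every age.

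The Cdkn1a fold of SMA over control was 1.33 at P2, 1.94 at P6 and 2.55 at P10, on log2 ratios of 0.42 ± 0.52, 0.95 ± 0.51 and 1.35 ± 0.55. The unadjusted p values of the z test were 0.42, 0.060 and 0.014 in that order, and each adjusted p was 1.00. Across ages the difference was 0.79 ± 0.16 (limma, unadjusted p = 0.0038, adjusted p = 0.999), a size that 0.551% of all loci reached or passed. With the authors' interval read as that of a single library, Cdkn1a at P10 had an adjusted p of 0.0195 (z test). That reading called 22 of 20157 loci at P10, and the SMA group at P10 carries the Smn1 limit given above.

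Ccng1, which encodes cyclin G1, a regulator of Mdm2 activity (chr11:40748552-40755311), had FPKM 19.1, 20.2 and 22.0 in SMA cords at P2, P6 and P10, against 13.6, 13.6 and 16.7 in control cords. Every SMA value lay above every control value. The folds were 1.40, 1.48 and 1.31, on log2 ratios of 0.49 ± 0.44, 0.57 ± 0.44 and 0.39 ± 0.57. Across ages it differed by 0.46 ± 0.09 (limma, unadjusted p = 0.0028, adjusted p = 0.999), and 1.37% of loci reached that size.

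The other arrest targets had smaller differences across ages than Cdkn1a and Ccng1. Plk2, a stress-induced polo-like kinase, had FPKM 14.4, 14.4 and 12.3 in SMA cords, against 15.5, 11.1 and 8.62 in control cords, lower in SMA at P2 and higher after. Btg2, an antiproliferative cofactor, had FPKM 2.39, 3.09 and 3.22 in SMA cords, against 3.05, 2.48 and 3.08 in control cords, and its difference across ages was the smallest of the members, at 0.01. Plk3, another polo-like kinase, lay between FPKM 6.33 and 6.84 in SMA cords and between 5.70 and 7.20 in control cords.

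Gadd45a, a stress sensor, had FPKM 3.39, 2.37 and 2.14 in SMA cords, against 2.13, 1.78 and 2.99 in control cords, with standard errors of 2.21 to 2.54 on its log2 ratios and a locus of 60.3 kb for a gene of 2.36 kb. Psrc1, which acts on spindle microtubules, reached at most FPKM 1.40 in SMA cords and 1.17 in control cords, with a log2 ratio of 1.05 ± 1.67 at P10. Ptp4a3, a phosphatase, lay between 4.10 and 6.29 in SMA cords and between 4.64 and 5.50 in control cords.

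**Figure D3:**
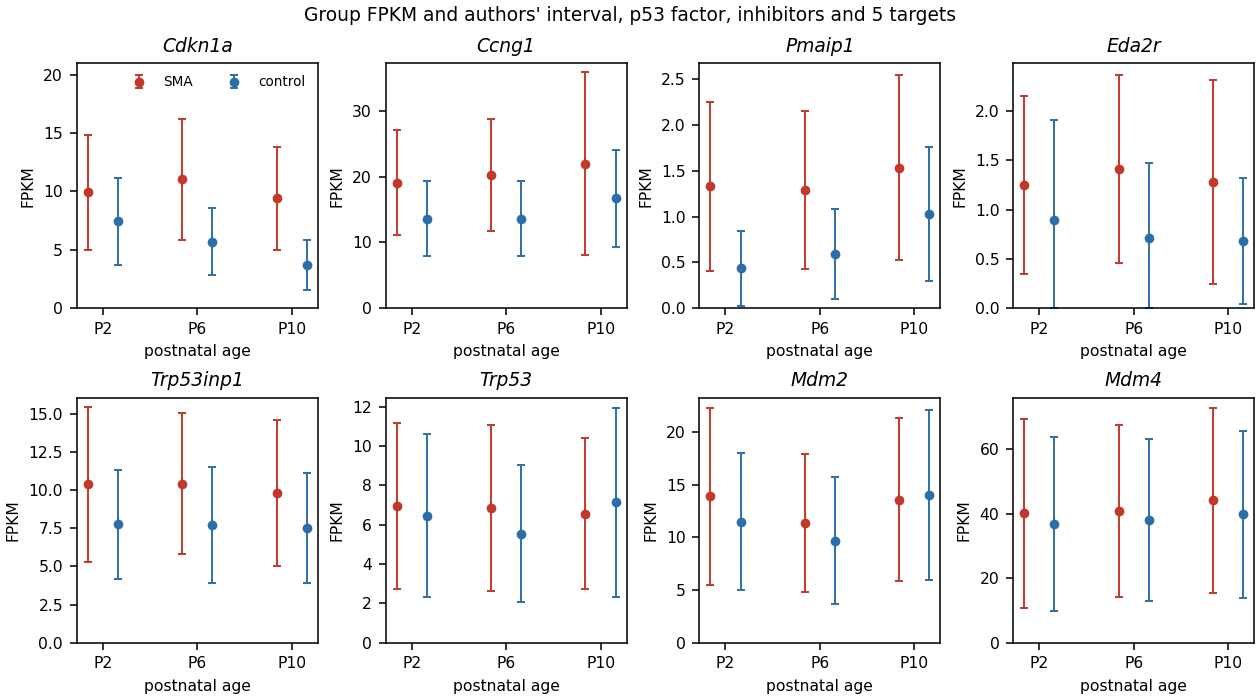
FPKM (y axis, from 0) of the 5 targets with an unadjusted p under 0.05 across ages and of Trp53, Mdm2 and Mdm4, at P2, P6 and P10 (x axis), SMA in red and control in blue; points are group values and bars the authors' interval. Cdkn1a, Ccng1, Pmaip1, Eda2r and Trp53inp1 lie higher in SMA at each age with bars that overlap, while Trp53 and Mdm2 lie lower in SMA at P10.

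Of the 14 targets linked to cell death, 12 reached the minimum level. Of these, 10 of 11 tested were higher in SMA at P2, 11 of 12 at P6 and 9 of 12 at P10. Over all loci tested, 49%, 60.1% and 55.6% were higher at P2, P6 and P10. The counts include members that entered only through the SMA group, which favours a higher SMA value. These were Pmaip1 and Eda2r at P2, both and Dram1 at P6, and Eda2r and Dram1 at P10. Pmaip1, which encodes the BH3-only protein Noxa (chr18:66458533-66465565), had FPKM 1.33, 1.29 and 1.54 in SMA cords, against 0.434, 0.590 and 1.03 in control cords. Its lowest SMA value was above its highest control value, but these levels rested on 25.2 to 30.5 estimated fragments in SMA cords and 8.86 to 20.5 in control cords. The folds were 3.07, 2.19 and 1.49, with log2 ratios of 1.62 ± 0.86, 1.13 ± 0.78 and 0.58 ± 0.71; at P2 and P6 the control value was under the minimum level. Across ages Pmaip1 differed by 0.52 ± 0.15 (limma, unadjusted p = 0.014, adjusted p = 0.999). This difference is on log2(FPKM + 1), which shrinks it at such a low level, so it cannot be set beside the 3 ratios.

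Eda2r, which encodes a receptor of the tumour necrosis factor family (chrX:97333840-97377216), had FPKM 1.25, 1.41 and 1.28 in SMA cords, against 0.896, 0.714 and 0.680 in control cords. Its folds were 1.39, 1.98 and 1.88, and it differed by 0.39 ± 0.14 across ages (limma, unadjusted p = 0.032, adjusted p = 0.999), on 18.4 to 39.1 estimated fragments per group. Trp53inp1, which encodes a stress protein that acts with p53 and in autophagy (chr4:11156431-11174379), had FPKM 10.4, 10.4 and 9.81 in SMA cords, against 7.76, 7.74 and 7.51 in control cords. Every SMA value of both genes was above every control value. The Trp53inp1 folds of 1.34, 1.35 and 1.31 were the most even of these 5 genes, and its difference across ages was 0.37 ± 0.09 (limma, unadjusted p = 0.0069, adjusted p = 0.999).

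Among the mitochondrial death genes, Bax, a pore-forming protein whose locus was joined with Dhdh and a clone-named gene, had FPKM 23.4, 25.6 and 19.4 in SMA cords, against 20.5, 18.3 and 17.7 in control cords. Bbc3, which encodes Puma, had FPKM 3.28, 4.78 and 3.12 in SMA cords, against 4.71, 2.99 and 2.35 in control cords, with a log2 ratio of -0.52 ± 0.85 at P2. The BH3-only genes Pmaip1 and Bbc3 thus lay on opposite sides of control at P2 and on the same side at P6 and P10. Their differences between SMA and control were not called in either direction.

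Ei24, an endoplasmic reticulum protein, was among the most abundant members, with FPKM 30.2, 29.8 and 30.4 in SMA cords, against 25.8, 25.7 and 30.1 in control cords, and its locus of 29.5 kb was wider than the gene of 18.2 kb. Aen, an apoptosis-enhancing nuclease, had FPKM 7.57, 7.10 and 6.44 in SMA cords, against 6.45, 4.41 and 5.91 in control cords. Perp, a membrane protein of desmosomes, had FPKM 4.34, 3.64 and 2.47 in SMA cords, against 4.31, 2.30 and 2.40 in control cords. Dram1, a lysosomal autophagy protein, had at most FPKM 1.57 in SMA cords and 0.933 in control cords. All 4 were higher in SMA wherever they were tested, by less than their errors except Perp and Aen at P6 (log2 ratios 0.66 ± 0.65 and 0.69 ± 0.68).

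Phlda3, an inhibitor of Akt signalling, had FPKM 9.95, 8.54 and 9.92 in SMA cords, against 5.77, 6.31 and 12.4 in control cords. Zmat3, an RNA-binding zinc finger protein, had FPKM 12.7, 10.9 and 15.4 in SMA cords, against 7.79, 11.1 and 19.6 in control cords at its main locus. Its minor locus, under the minimum level, had FPKM 0.812, 0.768 and 0.765 in SMA cords, against 0.745, 0.553 and 0.612 in control cords. That locus was higher in SMA at each age. Abhd4, a lipid hydrolase, had FPKM 20.03, 17.4 and 17.3 in SMA cords, against 13.0, 15.6 and 21.9 in control cords. These 3 were higher in SMA at P2, by log2 ratios of 0.79 ± 0.59, 0.71 ± 0.65 and 0.63 ± 0.52, and lower at P10, by -0.32 ± 0.50, -0.34 ± 0.51 and -0.35 ± 0.47.

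Of the 6 targets in DNA repair and nucleotide supply, 4 were higher in SMA at P2, 5 at P6 and 5 at P10. Over all loci tested, the shares were 49%, 60.1% and 55.6%. Polk, a translesion DNA polymerase, had FPKM 2.30, 2.46 and 2.45 in SMA cords, against 1.98, 1.66 and 1.78 in control cords, with every SMA value above every control value and a difference across ages of 0.28. Ercc5, the endonuclease of nucleotide excision repair, had FPKM 6.81, 8.17 and 5.79 in SMA cords, against 6.41, 5.68 and 5.56 in control cords. Rps27l, a ribosomal protein paralog, had FPKM 28.7, 28.5 and 24.8 in SMA cords, against 24.5, 23.6 and 23.9 in control cords; its sequence is close to that of Rps27, and reads may be shared.

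The damage sensors Xpc and Ddb2, which start nucleotide excision repair, had log2 ratios smaller than their errors at every age. Most loci had such ratios at each age. Xpc had FPKM 3.59, 3.28 and 3.02 in SMA cords, against 3.59, 2.76 and 2.92 in control cords. Ddb2 had FPKM 5.02, 5.58 and 6.37 in SMA cords, against 5.03, 4.46 and 5.27 in control cords. Rrm2b, the p53-inducible subunit of ribonucleotide reductase, had FPKM 5.36, 5.53 and 6.17 in SMA cords, against 3.77, 5.70 and 6.88 in control cords.

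Of the stress and metabolism targets, the sestrins, which restrain mTORC1 signalling, were both higher in SMA at 3 of 3 ages. The share of all loci was 11.7%. Sesn1 had FPKM 9.26, 9.10 and 8.22 in SMA cords, against 7.93, 7.27 and 7.92 in control cords. Sesn2 had FPKM 4.76, 5.75 and 5.77 in SMA cords, against 4.13, 3.86 and 5.16 in control cords. Across ages Sesn1 differed by 0.18 and Sesn2 by 0.26.

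The minimum level left out 3 genes and the minor Zmat3 locus. Fas, a death receptor, was just under it, at FPKM 0.938, 0.706 and 0.909 in SMA cords, against 0.307, 0.267 and 0.374 in control cords, on 9.48 to 14.3 estimated fragments in SMA cords and 3.57 to 5.66 in control cords. Tnfrsf10b, a receptor for the death ligand Trail, reached at most FPKM 0.570. Gdf15, a secreted stress cytokine, reached at most 0.119. Just above the minimum were Psrc1, Eda2r, Pmaip1 and Dram1, with highest values of 1.40, 1.41, 1.54 and 1.57.

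With age, most members had a smaller difference between P2 and P10 in SMA cords than in control cords, as most loci did. Both SMA groups compared here carry the limits given above, Smn1 at P10 and the oligodendrocyte markers at P2. From P2 to P10, 0 of 31 members were called in SMA cords (0.0602% of loci) and 0 of 29 in control cords (0.631%). At an unadjusted p under 0.05 there were 0 in SMA cords (0.331% of loci) and 3 in control cords (3.51%). The 3 were Zmat3, by a log2 change of 0.28 ± 0.55 in SMA cords and 1.33 ± 0.62 in control cords, Phlda3, by -0.0044 ± 0.54 and 1.11 ± 0.54, and Plk2, by -0.22 ± 0.43 and -0.85 ± 0.43. For Cdkn1a the changes were -0.08 ± 0.50 in SMA cords and -1.01 ± 0.56 in control cords.

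The absolute change from P2 to P10 was smaller in SMA cords for 19 of 31 members, beside 60.3% of loci, and the range over the 3 ages was narrower for 21 of 31, also beside 60.3% of loci. The median range of a member on the log2 scale was 0.23 in SMA cords and 0.38 in control cords, and over all loci it was 0.35 and 0.45. The test of the difference between the SMA and control changes called 0 of 31 members (0.0574% of loci), with 0 at an unadjusted p under 0.05 (0.894%). For Cdkn1a that difference was 0.93 ± 0.75 (unadjusted p = 0.22). The 2 changes share the groups that the comparisons at P2 and P10 used, so these values are not independent of those above.

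**Figure D4:**
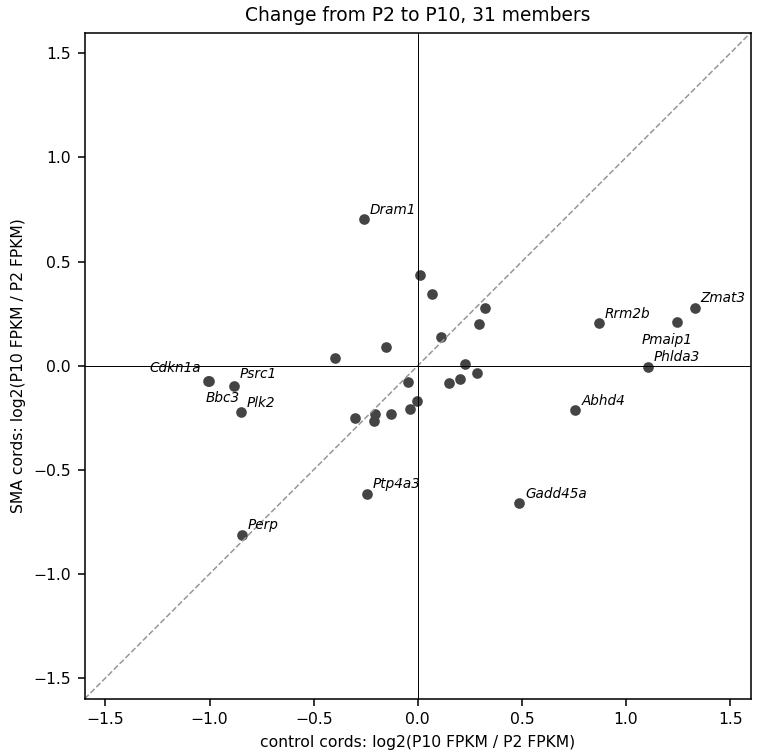
Log2 change in FPKM from P2 to P10 in SMA cords (y axis) against that in control cords (x axis), 1 point per member, with the line of equal change dashed. Pmaip1, Phlda3, Zmat3 and Rrm2b at the right and Cdkn1a, Bbc3, Psrc1 and Plk2 at the left have larger absolute changes in control than in SMA. Dram1, Ptp4a3 and Gadd45a are among those with larger absolute changes in SMA. The change was smaller in SMA for 19 of 31 members, beside 60.3% of loci.

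Markers of other cell types moved with the groups as well. Of 12 markers of mature oligodendrocytes, 12 were higher in SMA at P2, 7 of them called, 10 of 11 at P6 and 0 of 12 at P10; their summed FPKM was 3813, 2261 and 4702 in SMA cords, against 301, 2012 and 8378 in control cords. Of 8 astrocyte markers, 8, 6 and 2 were higher at P2, P6 and P10, with sums of 792, 773 and 847 in SMA cords, against 450, 688 and 1090.1 in control cords. The astrocyte markers that were higher in SMA at P10 were Aldh1l1, at a joined locus, and Slc1a3. Of the 31 members, 9 were higher in SMA at P2 and lower at P10, beside 29.3% of loci; Phlda3, Zmat3, Abhd4 and Rrm2b are 4 of these, singled out after their values were seen. Cdkn1a, Ccng1, Pmaip1, Eda2r and Trp53inp1 were higher in SMA at P2, P6 and P10. They were picked by the fit across ages, which uses the P10 groups, so a higher value at P10 partly follows from that choice. The part of the glial markers in the members' results was not tested.

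**Figure D5:**
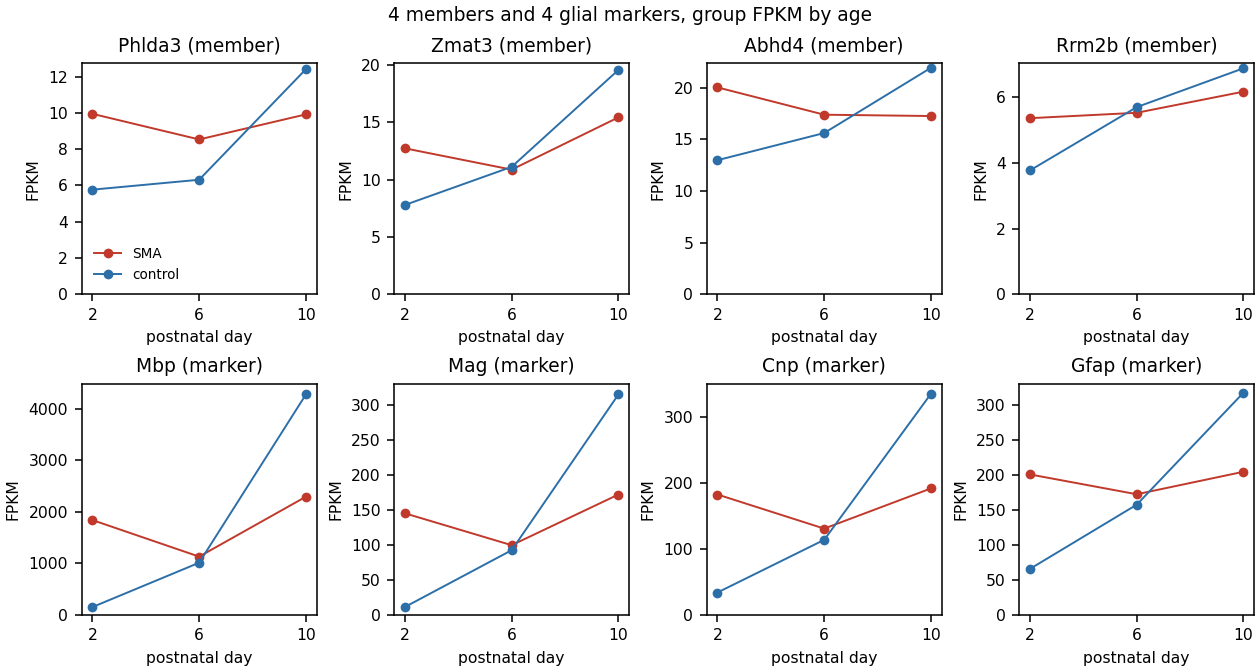
FPKM (y axis, from 0) of the members Phlda3, Zmat3, Abhd4 and Rrm2b (top) and of the glial markers Mbp, Mag, Cnp and Gfap (bottom), all chosen after their values were seen, by postnatal day (x axis), SMA in red and control in blue, with lines joining group values. In these 8 panels SMA is above control at P2 and below it at P10, which 2 of 8 astrocyte markers are not.

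Motor neuron markers summed to FPKM 50.3, 55.1 and 45.3 in SMA cords, against 63.6, 61.1 and 64.4 in control cords, with 0 of 7 higher across ages. Cycling cell markers summed to 21.1, 30.3 and 27.2 in SMA cords, against 28.1, 33.1 and 27.0 in control cords, with 1 of 8 higher across ages. Microglia markers summed to 70.6, 73.4 and 70.1 in SMA cords, against 57.9, 63.2 and 70.7 in control cords (6 of 7 higher across ages). Erythroid markers summed to 515, 816 and 470.3 in SMA cords, against 763, 984 and 731 in control cords (0 of 6 higher across ages). Adipocyte markers summed to 23.5, 28.4 and 2.36 in SMA cords, against 12.3, 5.99 and 2.74 in control cords (4 of 4 expressed higher across ages, with Cox8b listed at 0 in both groups at P10). Dorsal root ganglion markers summed to 0.708, 6.07 and 0.483 in SMA cords, against 0.709, 1.94 and 1.18 in control cords (4 of 4 expressed higher across ages). Schwann cell markers summed to 69.2, 193 and 123 in SMA cords, against 54.4, 144 and 251 in control cords (0 of 3 higher across ages). Skeletal muscle markers summed to 16.8, 7.83 and 2.37 in SMA cords, against 12.02, 7.78 and 2.098 in control cords (3 of 4 expressed higher across ages). The part of these cells in the members' results was not tested.

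Genes of the pathway outside the member list were counted in the same way, and their difference from the members was not tested. Over all loci tested, 49%, 60.1% and 55.6% were higher in SMA at P2, P6 and P10, and 60.7% across ages. Of 19 upstream kinases and cofactors, 16 reached the minimum level, and 9 of these were higher in SMA at P2, 12 at P6, 11 at P10 and 12 across ages, with 0 called at any age or across ages. The greatest differences were those of Chek1, a checkpoint kinase (0.17), and Rchy1, a ubiquitin ligase for p53 whose locus was joined with a predicted gene (0.14), and the least that of the checkpoint kinase Chek2 (-0.12). The p53 relatives Trp63 and Trp73 were under the minimum level in every group.

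Of 36 other targets and effectors, 31 reached the minimum level, and 13 of 30 were higher at P2, 23 of 30 at P6, 18 of 31 at P10 and 20 of 31 across ages, with 0 called. Pidd1, which encodes a death-domain protein of the PIDDosome, had FPKM 1.16, 0.985 and 1.14 in SMA cords, against 0.482, 0.446 and 0.679 in control cords, with every SMA value above every control value. Pidd1 reached FPKM 1 only in SMA groups, so the minimum level favoured a higher SMA value. It differed by 0.45 ± 0.14 across ages (limma, unadjusted p = 0.022, adjusted p = 0.999), the only gene of this list at an unadjusted p under 0.05 in that fit. Gadd45g differed by 0.36, on FPKM 8.53, 4.57 and 3.41 in SMA cords, against 3.23, 3.06 and 5.43 in control cords. Its log2 ratio was 1.40 ± 0.69 at P2 (z test, unadjusted p = 0.041) and -0.67 ± 0.63 at P10. Steap3, a metalloreductase, differed by -0.17.

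Of 17 cell cycle genes downstream of p21 (cyclins, their kinases, E2F factors, Cdc25c and the pocket proteins Rb1, whose locus was joined with Itm2b, and Rbl1), 14 reached the minimum level, with 6 higher in SMA at P2, 8 at P6, 6 at P10 and 7 across ages, and 0 called. The greatest differences were those of Cdk1 (0.10) and Ccnd3 (0.08), and the least that of Ccnb1 (-0.19).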

How the data were processed

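Total RNA of 18 spinal cord libraries was sequenced with a stranded kit after removal of ribosomal RNA, per the labels' protocols. The submitters' processing notes name Bowtie2 2.2.4, TopHat2 2.1.1, Cufflinks 2.2.1, Cuffdiff, Picard and FastQC and the build GRCm38; annotation release, strand setting and normalization are not given in the sources used here. The authors' tables give 1 FPKM per group and locus with the lower and upper bound of an interval. A companion table holds expected counts, the fragments estimated per group as deposited by the authors, with a variance; they are scaled and not whole, so no count model was used.

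The interval was read as 95%, and each pair of groups was tested on the log of its FPKM ratio with a z test (two-sided). Loci tested had FPKM 1 or more in a compared group, above 0 in each, and an OK status. Their z values spread by 0.262 to 0.470 (robust SD), less than a standard normal, which makes calls few. limma 3.58.1 (R 4.3.3), with trend, was fitted to log2(FPKM + 1). P values were adjusted by Benjamini-Hochberg over all loci tested and called under 0.05. Both tests were run on simulated data, with noise as wide as the authors' interval for the z test and a fixed spread for limma. The z values of the real data spread less, so the simulation does not show how that test behaves here. For limma the simulated genotype difference was the same at each age. Other steps used scipy 1.17.1, numpy 2.4.6 and pandas 2.3.3 in Python 3.11.15, and figures matplotlib 3.10.9. Gene coordinates are those of GENCODE M21 on GRCm38, and promoters are RefSeq's.

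Members and lists were chosen with earlier results of these data known. All members at FPKM 1 or more in a group were named; of other pathway lists, the 2 greatest and the least difference across ages, and any called gene. Marker lists were spinal cord, oligodendrocyte, astrocyte, motor neuron, cycling, microglia, adipocyte, skeletal muscle, erythroid, dorsal root ganglion and Schwann cell.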

Additional observations from a re-analysis of the deposited data

How the results depend on the processing

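Members called stayed at 0 under each alternative except the interval read as that of 1 library. There, SMA against control at P10 called 1 of 31 members (Cdkn1a), beside 22 of 20157 loci. P10 against P2 in control called 4 of 29 (Cdkn1a, Plk2, Phlda3 and Zmat3), beside 920 of 19956 loci. The Cdkn1a call at P10 rests on the SMA group whose Smn1 value goes against its label. Of the members' single values, 672 kept direction and call under the alternatives and 21 changed sign; the cause was not tested. At P2, from the fragment estimates, the log2 ratio was -0.012 for Perp, 0.047 for Xpc and 0.048 for Ddb2, and, centred on the median of all loci, 0.0040 for Xpc and 0.0034 for Ddb2. At P6, from the estimates, it was -0.0087 for Mdm4. At P10 it was -0.014 for Ei24 and -0.070 for Xpc from the estimates, and -0.0027 for Perp and -0.031 for Ei24 when centred. Across ages, Btg2 was -0.014 from the estimates, -0.0041 when centred and -0.012 without P10. Without P2, Gadd45a was -0.035, Zmat3 -0.18, Abhd4 -0.091 and Rrm2b -0.087. Without P6, Trp53 was -0.0071, Btg2 -0.10, Plk3 -0.0041 and Bbc3 -0.059.

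Members higher at every age numbered 17, and, as alternatives chosen after seeing the data, 24 without P10 (31.4% of loci), 22 without P2 (30.7%), 17 without P6 (18.9%), 15 from the estimates (8.92%) and 17 when centred (8.82%). Members at an unadjusted p under 0.05 across ages numbered 5 (451 of 21960 loci), but 10 from the estimates (308 of 21960), 5 without P2 (624 of 21426), 2 without P6 (311 of 21293) and 8 without P10 (1344 of 20720).

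Calls over all loci at P2, P6 and P10 numbered 24, 9 and 8, but 20, 0 and 0 from the estimates and 123, 26 and 22 with the interval of 1 library. From P2 to P10 they numbered 12 in SMA, 126 in control and 12 for the difference, but 2, 216 and 23 from the estimates and 44, 920 and 163 with the interval of 1 library; the difference had 20 at FPKM 5 or more. limma called 1 locus, but 0 from the estimates, with a pseudocount of 5, at FPKM 5 or more or with no minimum, and 12, 15 and 6 without P2, P6 and P10.

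No paired analysis was possible because the tables hold 1 value per group and carry no replicate numbers; leaving out each replicate was not run for the same reason. A low level limits Pmaip1, Eda2r, Psrc1 and Dram1, and intervals cover the authors' model, not the animals.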
